A study of Mus musculus with 12 samples.

Results

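The enzymes that remove superoxide and peroxides, together with genes that set how readily a cell dies by ferroptosis, were followed in mouse lung cancer cells treated with activators of NRF2. The genes were Gpx1, Gpx2, Gpx3 and Gpx4 (glutathione peroxidases), Cat (catalase), Sod1 and Sod2 (superoxide dismutases), Aifm2 and Acsl4, and every array probe carrying 1 of these 9 symbols was taken. They were 9 of the 30869 gene symbols on the array and were represented by 20 of its 45281 probes. Of the 20, 16 probes passed the filter on low signal, a detection p under 0.05 on at least 3 of the 12 arrays, and they covered 8 of the 9 genes. No probe of Gpx3 was left.

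VC1 is a line of lung adenocarcinoma cells, from female A/J mice per the labels. Its cells were kept for 6 hours with the solvent DMSO, with 0.05 µM CDDO-Im, with 0.1 µM CDDO-Me or with 15 µM dimethyl fumarate (DMF), and total RNA of 3 samples a group was hybridised to Illumina mouse whole-genome BeadChips, 12 arrays in all. No genetic change was labelled in any group, and all groups were grown in the same medium with serum. CDDO is a synthetic triterpenoid, of which CDDO-Me is a methyl ester and CDDO-Im an imidazolide, and DMF is a small unrelated fumarate ester; the series names all 3 as NRF2 activators. The doses of the 3 agents differed, so CDDO-Im and CDDO-Me are given side by side without a comparison, and each was set against DMF only as dosed. The labels do not say whether the 3 samples of a group came from separate cultures, and the p-values therefore measure only the spread between these samples, which may be technical.

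Superoxide dismutases turn superoxide into hydrogen peroxide, which catalase splits in peroxisomes and which glutathione peroxidases reduce with glutathione; several of the latter are selenoproteins. Ferroptosis is an iron-dependent death by peroxidation of membrane lipids. GPX4 reduces lipid hydroperoxides within membranes, and AIFM2 (also called FSP1) keeps ubiquinone reduced as a second brake on that chain reaction. ACSL4 activates polyunsaturated fatty acids, the substrates of peroxidation, for their entry into phospholipids. NRF2 is a transcription factor that is released by electrophiles and binds antioxidant response elements near genes of glutathione, quinone and iron metabolism.

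Levels are given as log2 signal after background correction and quantile normalization, and a difference of 1 is a doubling. The level of 1 probe cannot be set against that of another. Each difference was tested with limma in a fit of all 19211 probes that passed the filter, with treatment and chip as terms, and counted as called when its adjusted p was below 0.05. The arrays of DMSO replicate 1 and CDDO-Im replicate 2, both on chip 1, did not resemble the others. They had median correlations of 0.916 and 0.936 with the other arrays across genes, against 0.988 to 0.997 among the other 10. Raw intensity averaged 439.6 and 457.2 on them, and 551.6 to 683.7 on the other 10. On DMSO replicate 1, 5 of the 16 tested probes lay over 1 log2 unit from the mean of the other DMSO arrays, and on CDDO-Im replicate 2 it was 3 of 16, shares of 31.2% and 18.8% beside 28.1% and 23.1% of all tested probes. The counts and the differences from DMSO of the 9 genes are therefore given with all 12 arrays and again with the 10 arrays left without those 2, and elsewhere the set is named. Why the 2 arrays stood apart was not tested.

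The cells were checked against markers. Krt8, Krt18, Krt19, Cdh1 and Nkx2-1 were detected on 12 of 12 arrays, while Epcam and Sftpc, which also mark lung epithelium, were detected on 0. Of 5 leukocyte markers, Ptprc, Cd3e and Adgre1 were detected on 0 arrays, Cd68 on 11 and Cd14 on 12, and the summed raw intensity of the 5 was 1804 to 2435 with DMSO, 1135 to 1213 with CDDO-Im, 1111 to 1352 with CDDO-Me and 1587 to 1670 with DMF. Mean log2 signal was 10.05 for Cd14, 6.34 for Cd68 and 4.68 to 4.74 for the undetected markers, so the sum mostly reflects Cd14. The part of this shift in the results was not tested. The NRF2 target Nqo1 rose with all 3 agents, by 1.59 ± 0.23 (SE), 1.80 ± 0.24 and 1.5 ± 0.24 on the log2 scale with CDDO-Im, CDDO-Me and DMF (limma, 12 arrays, adjusted p = 0.00855, 0.00629 and 0.0377), and on 10 arrays by 1.98, 1.92 and 1.61. Hmox1, the heme oxygenase, rose by 4.41 and 3.80 with CDDO-Im and CDDO-Me on 12 arrays, and by 5.13 and 4.29 on 10. With DMF its difference was 1.31 (adjusted p = 0.513), and with 10 arrays it rose by 1.79 (adjusted p = 0.000166).

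Against DMSO, 12 arrays gave few calls among these genes. With CDDO-Im, 0 of the 16 probes were called by limma, beside 1.15% of all probes called higher and 0.323% called lower. An unadjusted p under 0.05 was found for 6 of the 16, beside 2464 of all 19211 probes. With CDDO-Me, 1 probe of Aifm2 was called lower, beside 0.302% of all probes lower and 0.76% higher. Here 7 had an unadjusted p under 0.05, beside 1362 of all 19211 probes. With DMF, 0 were called, beside 0.291% of all probes higher and 0.0104% lower. Here 2 had an unadjusted p under 0.05, beside 1243 of all 19211 probes. The 10 arrays gave 2 higher and 1 lower with CDDO-Im, beside 5.01% and 4.05% of all probes. They gave 3 higher and 5 lower with CDDO-Me, beside 4.91% and 4.52%, and 2 higher and 0 lower with DMF, beside 3.46% and 3.31%. The calls on 10 arrays came from 2, 4 and 1 genes with CDDO-Im, CDDO-Me and DMF, and probes of the same gene measure the same RNA. The median difference over the 16 probes was -0.02, -0.18 and 0.01 with 12 arrays, beside 0.02, -0.01 and -0.02 over all tested probes. With 10 arrays it was -0.13, -0.19 and 0, beside -0.02, -0.01 and -0.02. The 3 comparisons share their DMSO arrays.

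**Figure D1:**
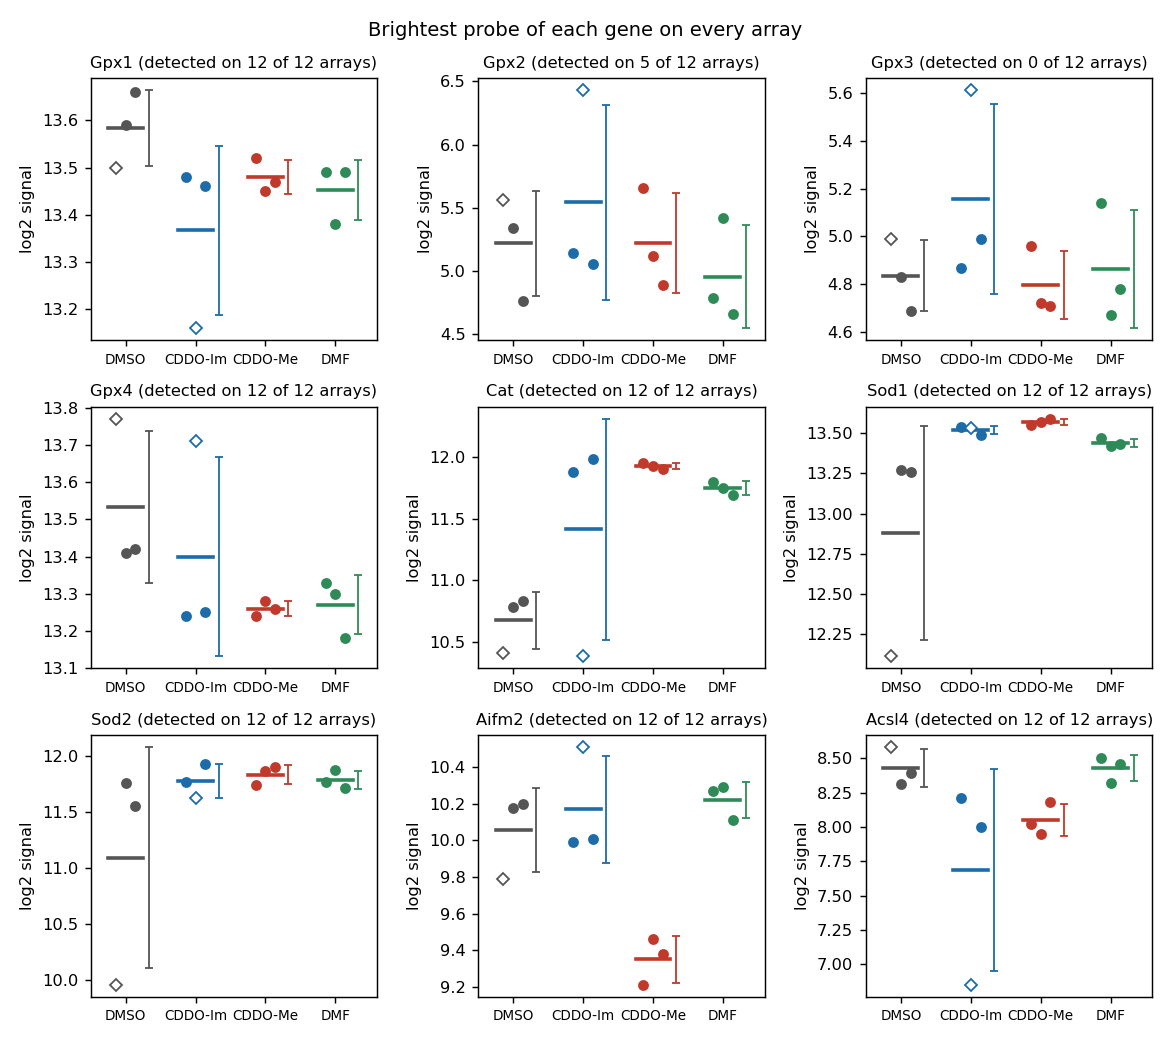
Log2 signal (y, a scale of its own in each panel) of the brightest probe of each of the 9 genes in the 4 groups (x). Each point is an array, the line is the group mean, the bar is the SD of 3 arrays, and open diamonds are DMSO replicate 1 and CDDO-Im replicate 2; Cat lies at 11.69 to 11.95 on all CDDO-Me and DMF arrays and at 10.41 to 10.83 on all DMSO arrays, and Gpx3 was detected on 0 arrays.

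Catalase was higher with each of the 3 agents on the 10 arrays. Cat breaks hydrogen peroxide down to water and oxygen without a cofactor to be regenerated. Its brighter probe, ILMN_2826110, read 10.41, 10.78 and 10.83 on the DMSO arrays. It read 11.95, 11.93 and 11.90 with CDDO-Me and 11.80, 11.75 and 11.69 with DMF. With CDDO-Im it read 11.88 and 11.98 on replicates 1 and 3, but 10.38 on replicate 2, 1 of the outlying arrays. The CDDO-Me and DMF groups therefore did not overlap DMSO, and CDDO-Im did so through that array alone.

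On the 10 arrays this probe of Cat rose by 1.12 ± 0.08 (SE) with CDDO-Im, a 2.18-fold change (limma, adjusted p = 7.38e-05). It rose by 1.12 ± 0.07 with CDDO-Me (adjusted p = 3.66e-05) and by 0.94 ± 0.07 with DMF (adjusted p = 0.000218). On all 12 arrays no difference of Cat was called: the same probe gave 0.74 (95% interval -0.03 to 1.51), 1.17 (0.37 to 1.97) and 0.99 (0.20 to 1.79), with adjusted p = 0.397, 0.332 and 0.671 by limma. On chip 2 alone, which holds neither outlying array, the differences were 1.15, 1.08 and 0.89. They set 1, 2 and 2 arrays against 1 DMSO array, all of them among the 10, and so are not a separate result. Leaving out CDDO-Im replicate 2 alone was enough for a call with each agent (1.25, 1.23 and 1.06, adjusted p = 0.00392, 0.00217 and 0.0117). Leaving out DMSO replicate 1 alone was not (0.64, 1.09 and 0.91, adjusted p = 0.62, 0.431 and 0.712). CDDO-Im replicate 2 enters the CDDO-Me and DMF differences only through the spread and chip term shared by the whole fit. The direction was the same in each of these fits.

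The dimmer probe of Cat, ILMN_2772845, was detected on 11 of 12 arrays and moved in the same direction. It read 4.55, 5.32 and 5.56 with DMSO, 5.74, 6.11 and 6.48 with CDDO-Im, 5.86, 6.44 and 6.32 with CDDO-Me and 5.94, 6.52 and 6.22 with DMF. All 9 arrays with an agent were above all 3 DMSO arrays, CDDO-Im replicate 2 included. On 12 arrays the differences of 0.97, 0.89 and 0.91 were not called (limma, adjusted p = 0.0625, 0.141 and 0.231). On 10 arrays the probe rose by 0.67, 0.69 and 0.71 (adjusted p = 0.0184, 0.0108 and 0.0146). CDDO-Im replicate 2 was thus low for 1 probe of Cat and within its group for the other.

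**Figure D2:**
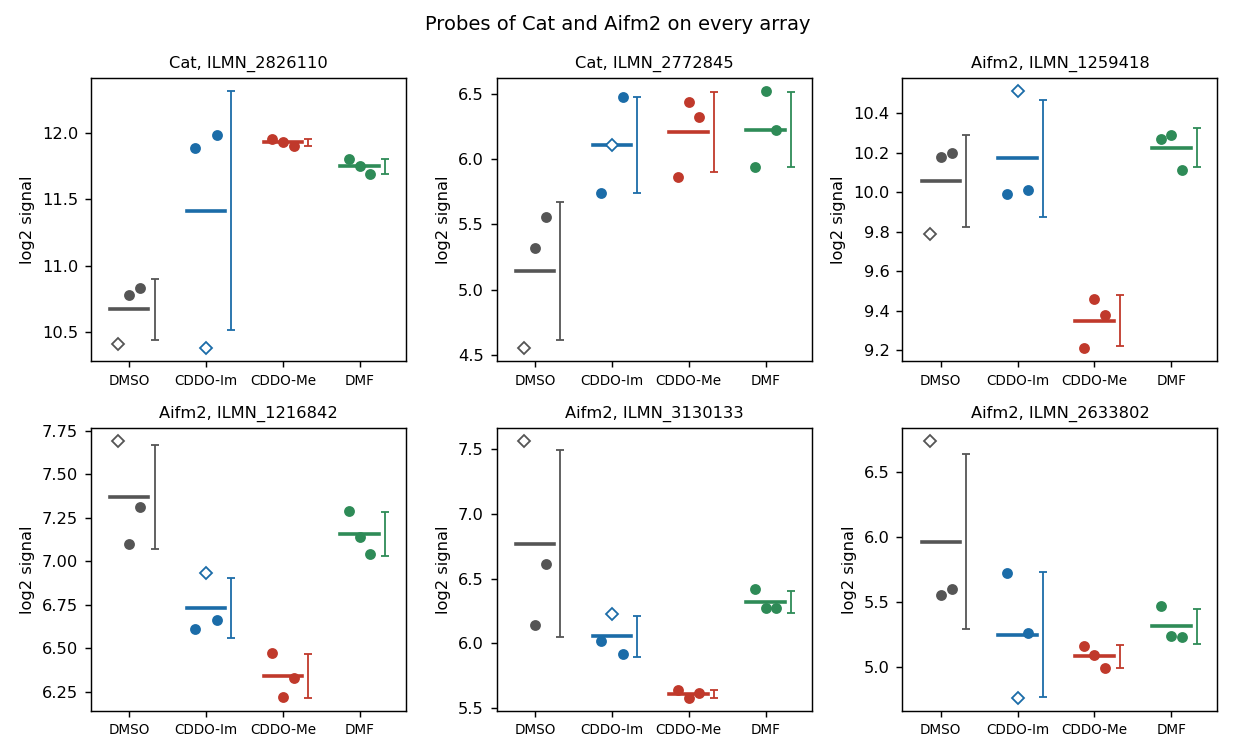
Log2 signal (y, a scale of its own in each panel) of the 2 tested probes of Cat and the 4 tested probes of Aifm2 in the 4 groups (x), with points, lines, SD bars and open diamonds for arrays, means and the outlying arrays DMSO replicate 1 and CDDO-Im replicate 2. The 3 CDDO-Me arrays lie below the 3 DMSO arrays and the 3 DMF arrays for each probe of Aifm2.

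The upstream 250 bases of Cat and Sod1, the genes whose RNA rose in at least 1 comparison on the 10 arrays, are shown so that their motifs can be read beside those values. They are from RefSeq, GRCm38.p6, the 250 bases before the annotated start, written 5′ to 3′ on the gene's strand, for Cat chr2:103485154-103485403 on the minus strand and for Sod1 chr16:90220512-90220761 on the plus strand. Capitals mark matches on either strand to TGACNNNGC (the core of the antioxidant response element), to GGGCGG (a GC box) or to CCAAT, and overlapping matches run together.
Cat: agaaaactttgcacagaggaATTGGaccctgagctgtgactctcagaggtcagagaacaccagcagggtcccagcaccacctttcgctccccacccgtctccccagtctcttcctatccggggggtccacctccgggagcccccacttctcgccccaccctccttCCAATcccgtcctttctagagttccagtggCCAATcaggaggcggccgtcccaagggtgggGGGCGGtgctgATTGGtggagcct
Sod1: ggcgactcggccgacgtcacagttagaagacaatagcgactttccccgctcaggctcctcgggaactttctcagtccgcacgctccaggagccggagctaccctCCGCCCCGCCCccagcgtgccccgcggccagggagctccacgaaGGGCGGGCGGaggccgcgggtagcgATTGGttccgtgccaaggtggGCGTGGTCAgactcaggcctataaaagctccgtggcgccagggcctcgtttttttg
Cat held 4 matches to CCAAT and 1 to GGGCGG and none to TGACNNNGC in this window. Sod1 held 1 match to TGACNNNGC, 56 bases before the start, on the strand opposite to the gene. Of the 12 upstream windows that the table holds for the 9 genes, 1 matched TGACNNNGC, beside 10.2% of 32851 mouse promoters of the same length. For GGGCGG it was 8 of 12 beside 32.7%, and for CCAAT 8 of 12 beside 33.8%, and some windows of Gpx4 overlap. The matches describe letters only. The 1 window listed for Aifm2, chr10:61720399-61720648 on the plus strand, held none of the 3 motifs. It lies inside the annotated gene, which starts at 61715263, and the bases before that start were not read.

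Of the dismutases, Sod1 (cytosolic, copper and zinc) rose with CDDO-Me on the 10 arrays, and Sod2 (mitochondrial, manganese) was called in no comparison. The tested probe of Sod1 read 12.11, 13.27 and 13.26 with DMSO, 13.54, 13.53 and 13.49 with CDDO-Im, 13.55, 13.57 and 13.59 with CDDO-Me and 13.47, 13.42 and 13.43 with DMF. All 9 arrays with an agent lay above the 3 DMSO arrays, 1 of which, DMSO replicate 1, was over 1 unit below the others. On 10 arrays Sod1 rose by 0.30 ± 0.06 (SE) with CDDO-Me, a 1.23-fold change (limma, adjusted p = 0.0201). The differences with CDDO-Im and DMF, 0.25 and 0.18, were not called (adjusted p = 0.0638 and 0.135). On 12 arrays the 3 differences were 0.64, 0.64 and 0.52, with 95% intervals of 0.04 to 1.24, 0.02 to 1.26 and -0.10 to 1.14, and none was called (adjusted p = 0.381, 0.679 and 0.679).

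Sod2 read 9.96, 11.76 and 11.56 with DMSO and 11.63 to 11.93 on the 9 arrays with an agent. Without DMSO replicate 1 the arrays of each agent overlapped the other DMSO arrays, those of CDDO-Im through replicate 2 alone (11.63). On 10 arrays the differences were 0.19 (95% interval -0.05 to 0.43), 0.17 (-0.06 to 0.39) and 0.12 (-0.10 to 0.35) with CDDO-Im, CDDO-Me and DMF. On 12 arrays they were 0.68, 0.65 and 0.60, and none was called (limma, adjusted p = 0.427, 0.744 and 0.679). The larger values thus came with 1 array.

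Among the glutathione peroxidases, no probe was called in any comparison. Gpx1, the cytosolic enzyme of most tissues, read 13.50, 13.59 and 13.66 with DMSO, 13.48, 13.16 and 13.46 with CDDO-Im, 13.52, 13.45 and 13.47 with CDDO-Me and 13.49, 13.38 and 13.49 with DMF. The DMSO arrays were at the top of this narrow range, where DMSO replicate 1 overlapped the CDDO-Me arrays alone and the CDDO-Im and DMF arrays lay below all 3. The 10-array intervals were -0.33 to 0.02, -0.30 to 0.02 and -0.33 to -0.01 for CDDO-Im, CDDO-Me and DMF, with adjusted p = 0.278, 0.285 and 0.199 by limma. The 12-array intervals were wider, at -0.54 to 0.10, -0.44 to 0.22 and -0.47 to 0.19, so a change of Gpx1 of up to about 0.54 lies within them.

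Gpx4, the peroxidase of membrane lipids, had 3 tested probes. The brightest, ILMN_2684855, read 13.77, 13.41 and 13.42 with DMSO, 13.24, 13.71 and 13.25 with CDDO-Im, 13.24, 13.28 and 13.26 with CDDO-Me and 13.33, 13.30 and 13.18 with DMF. Both outlying arrays were high, and on the rest the DMSO arrays exceeded all others. The 10-array differences were -0.17 (95% interval -0.35 to 0), -0.16 (-0.32 to 0.01) and -0.14 (-0.31 to 0.02), with adjusted p = 0.228, 0.238 and 0.267 by limma. On 12 arrays they were -0.14 (-0.52 to 0.24), -0.24 (-0.63 to 0.15) and -0.23 (-0.62 to 0.16). ILMN_3100812 stayed within 11.75 to 12.07 on all 12 arrays, with differences of 0.04, -0.04 and 0.05 on 12 arrays and -0.10, -0.13 and -0.03 on 10. ILMN_3027761 was detected on 4 of 12 arrays, none of them with CDDO-Me or DMF, and gave -0.30, -0.42 and -0.44 on 12 arrays and 0.08, -0.23 and -0.25 on 10. The intervals of the 2 brighter probes of Gpx4 reached no lower than -0.35 on 10 arrays and -0.63 on 12.

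Gpx2, a peroxidase best known from gut epithelium, was detected on 5 of 12 arrays, at 4.66 to 6.43. Its 10-array differences were 0.05, 0.22 and -0.05 with intervals of -0.61 to 0.72, -0.39 to 0.83 and -0.66 to 0.56, and its 12-array differences were 0.33, 0.16 and -0.11 with intervals of -0.46 to 1.12, -0.65 to 0.97 and -0.92 to 0.70. A change of Gpx2 within these bounds was not detectable at this signal. Gpx3, the secreted plasma enzyme, was not above background on any of the 12 arrays, at 4.67 to 5.61, and no difference is given. The second probe of Sod1, ILMN_1236313, was detected on 2 arrays and was left out of the test.

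Aifm2 had the only call among the 9 genes on 12 arrays. AIFM2 is an oxidoreductase of membranes that uses NAD(P)H to reduce ubiquinone. Probe ILMN_1216842 read 7.69, 7.10 and 7.31 with DMSO, 6.61, 6.93 and 6.66 with CDDO-Im, 6.47, 6.22 and 6.33 with CDDO-Me and 7.29, 7.14 and 7.04 with DMF. The CDDO-Me and CDDO-Im arrays all lay below the DMSO and DMF arrays, and DMF overlapped DMSO. On 12 arrays it fell by 0.98 ± 0.18 (SE, 95% interval -1.39 to -0.57) with CDDO-Me, to 0.506 of the DMSO level (limma, adjusted p = 0.0355). Leaving out 1 array at a time ended this call for 9 of the 12 arrays, while the difference stayed between -1.13 and -0.85. On 10 arrays it fell by 0.86 (adjusted p = 0.00181).

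The other 3 tested probes of Aifm2 were lower with CDDO-Me than with DMSO on every array, and were called on the 10 arrays. The brightest, ILMN_1259418, read 9.79, 10.18 and 10.20 with DMSO, 9.21, 9.46 and 9.38 with CDDO-Me and 10.27, 10.29 and 10.11 with DMF, and 9.99, 10.51 and 10.01 with CDDO-Im. Here the CDDO-Im arrays overlapped DMSO. It fell by 0.85 with CDDO-Me on 10 arrays (limma, adjusted p = 0.00082), and was at -0.71 with 12 (95% interval -1.16 to -0.27, adjusted p = 0.253). ILMN_3130133 read 7.56, 6.14 and 6.61 with DMSO and 5.64, 5.58 and 5.62 with CDDO-Me, and fell by 0.77 on 10 arrays (adjusted p = 0.00778). With 12 arrays its difference was -1.10 (adjusted p = 0.233).

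The dimmest tested probe of Aifm2, ILMN_2633802, read 6.74, 5.55 and 5.60 with DMSO, 5.72, 4.76 and 5.26 with CDDO-Im, 5.16, 5.09 and 4.99 with CDDO-Me and 5.47, 5.24 and 5.23 with DMF. It was detected on all 3 DMSO arrays and on 0 with CDDO-Me, so that it was at least 1.62-fold lower on 12 arrays, taking for each CDDO-Me array the higher of its own reading and the lowest signal detected there, with no call (limma, adjusted p = 0.632, measured means 5.96 and 5.08). That bound rests on DMSO replicate 1: without that array alone the difference went from -0.81 to -0.48 (adjusted p = 0.764). On 10 arrays the probe fell by 0.46, a 1.38-fold change (adjusted p = 0.033). The fifth probe of Aifm2 was detected on 0 arrays.

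With CDDO-Im the probes of Aifm2 disagreed in size. On 10 arrays ILMN_1216842 fell by 0.57 (limma, adjusted p = 0.0213), while the others gave -0.40, -0.19 and -0.08 and were not called (adjusted p = 0.125, 0.319 and 0.743). On 12 arrays the 4 differences were -0.63, -0.71, 0.11 and -0.72 for ILMN_1216842, ILMN_3130133, ILMN_1259418 and ILMN_2633802, and none was called (adjusted p = 0.179, 0.369, 0.781 and 0.388). With DMF the probes ILMN_1259418, ILMN_1216842, ILMN_3130133 and ILMN_2633802 gave 0.03, -0.04, -0.06 and -0.23 on 10 arrays. They gave 0.16, -0.17, -0.40 and -0.58 on 12, where the last had a 95% interval of -1.32 to 0.16, and none was called on either set. A difference between CDDO-Im and CDDO-Me was not tested, since their doses differ.

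Set directly against DMF, CDDO-Me gave 0 called probes of these genes on 12 arrays by limma, beside 0.0521% of all probes. An unadjusted p under 0.05 was found for 4, beside 399 of all 19211 probes. With the replicate number as a block in place of chip it again gave 0 on 12 arrays, and 3 of all probes in place of 10. The block was not fitted on 10 arrays. On 10 arrays, with chip as the term, CDDO-Me gave 4 lower and 0 higher, beside 3.29% of all probes in either direction. Of the 4, 3 were of Aifm2. ILMN_1259418 was lower by -0.87 (adjusted p = 0.00119), ILMN_1216842 by -0.82 (adjusted p = 0.00357) and ILMN_3130133 by -0.71 (adjusted p = 0.015), and the 3 DMF arrays exceeded the 3 CDDO-Me arrays for each. The dimmest probe of Aifm2 gave -0.23 and was not called (adjusted p = 0.289). On 12 arrays the adjusted p of the first 2 was 0.354 and 0.322, at the same differences of -0.87 and -0.82. Neither outlying array is in the CDDO-Me or DMF group, and the spread is shared by all arrays of a fit. The SE of ILMN_1259418 was 0.19 on 12 arrays and 0.08 on 10. CDDO-Im against DMF gave 0 called probes on 12 arrays, beside 0% of all probes, and 0 on 10 arrays, beside 1.33%. On the 2 sets, 2 and 8 had an unadjusted p under 0.05, beside 564 and 2404 of all 19211 probes. These are values at the doses used, 0.1 µM CDDO-Me, 0.05 µM CDDO-Im and 15 µM DMF.

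**Figure D3:**
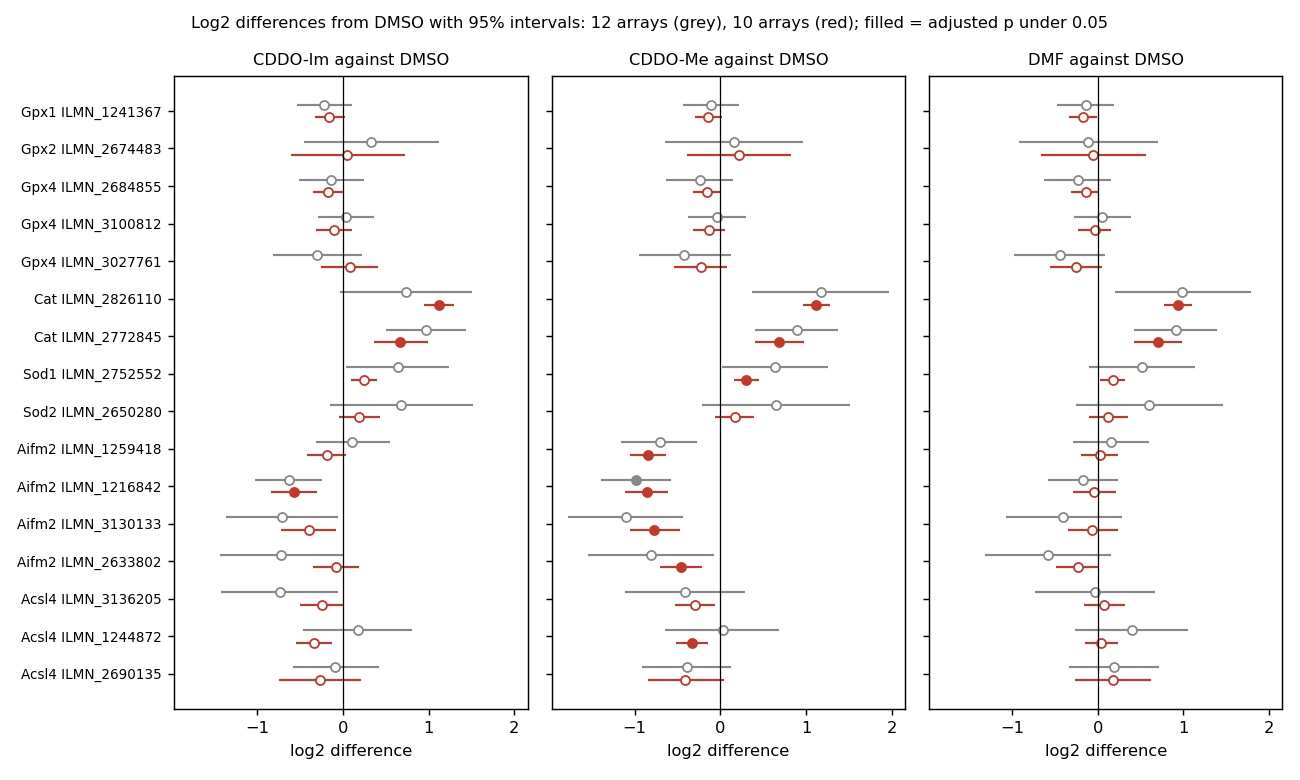
Log2 difference from DMSO (x) of the 16 tested probes (y) for CDDO-Im, CDDO-Me and DMF, with 95% intervals from 12 arrays (grey) and from the 10 arrays without DMSO replicate 1 and CDDO-Im replicate 2 (red); filled points had an adjusted p under 0.05 by limma. The intervals are narrower with 10 arrays, Cat lies to the right with all 3 agents and Aifm2 to the left with CDDO-Me.

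Acsl4, which raises the share of polyunsaturated phospholipids, had no call on 12 arrays. On the 10 arrays each tested probe was lower with CDDO-Im and CDDO-Me than with DMSO, but only ILMN_1244872 was called, with CDDO-Me. Its brightest probe, ILMN_3136205, read 8.58, 8.31 and 8.39 with DMSO, 8.21, 6.85 and 8.0 with CDDO-Im, 8.02, 7.95 and 8.18 with CDDO-Me and 8.50, 8.32 and 8.46 with DMF. All CDDO-Me and CDDO-Im arrays lay below the DMSO arrays, the lowest being CDDO-Im replicate 2. No difference was called for it on either set. With CDDO-Im it was -0.74 on 12 arrays (95% interval -1.42 to -0.06, adjusted p = 0.369) and -0.25 on 10 (adjusted p = 0.242), and without CDDO-Im replicate 2 alone it was -0.31. With CDDO-Me it was -0.41 on 12 arrays and -0.29 on 10 (limma, adjusted p = 0.744 and 0.128). With DMF it was -0.03 on 12 arrays and 0.08 on 10.

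Another probe of Acsl4, ILMN_1244872, read 6.48, 7.74 and 7.74 with DMSO, 7.33, 7.66 and 7.48 with CDDO-Im, 7.29, 7.47 and 7.56 with CDDO-Me and 7.61, 7.93 and 7.91 with DMF. Its direction turned on DMSO replicate 1: with CDDO-Me the difference was 0.03 on 12 arrays (95% interval -0.64 to 0.69), and on 10 arrays it fell by 0.33 (limma, adjusted p = 0.0453). The difference with CDDO-Im was 0.17 on 12 arrays and -0.34 on 10 (limma, adjusted p = 0.78 and 0.0588). With DMF it was 0.4 and 0.04. Against DMF on 10 arrays this probe was lower with CDDO-Me by -0.37 (limma, adjusted p = 0.0345). There ILMN_3136205 gave -0.38 and was not called (adjusted p = 0.0742). ILMN_2690135 was called in no comparison, at 6.02 to 7.21 over the 12 arrays. Its differences with CDDO-Im, CDDO-Me and DMF were -0.09, -0.39 and 0.19 on 12 arrays and -0.27, -0.41 and 0.18 on 10. For CDDO-Me against DMF it gave -0.58 on 10 arrays (limma, adjusted p = 0.128). The fourth probe of Acsl4 was detected on 0 arrays.

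Other genes of the same chemistry were read from lists taken as a whole. Of 13 further peroxide and superoxide enzymes, 9 were tested with 15 probes, and on 12 arrays 1 probe was called, for Prdx1, a peroxiredoxin, which rose by 1.92 with CDDO-Im. Its adjusted p rounds to 0.05 and lies under the threshold. The same probe was called on 10 arrays with all 3 agents, at 1.38, 1.29 and 1.12, while the other probe of Prdx1 gave 0.17, 0.12 and 0.09 and was not called. For Prdx5, a mitochondrial and peroxisomal peroxiredoxin, probe ILMN_2637233 rose by 0.38 with DMF on 10 arrays (limma, adjusted p = 0.0439). Probe ILMN_1239765 of Prdx5 gave -0.03 there and was not called. The median difference of these 15 probes on 10 arrays was 0.01, 0.09 and -0.03, beside -0.02, -0.01 and -0.02 over all tested probes.

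Of 31 further genes of lipid peroxidation and ferroptosis, 25 were tested with 42 probes. Called on 12 arrays with all 3 agents were the 4 probes of Slc7a11, which imports cystine for glutathione synthesis, and Chac1, which degrades glutathione. ILMN_2948143 of Slc7a11 rose by 3.83, 3.72 and 3.39 (limma, adjusted p = 7.09e-06, 1.13e-05 and 3.01e-05), and Chac1 by 1.17, 1.32 and 1.63 (adjusted p = 0.00451, 0.00297 and 0.00179). 1 of 2 probes of Gch1, which makes the precursor of tetrahydrobiopterin, rose by 0.95 with CDDO-Im (adjusted p = 0.0415). In all, 6, 5 and 5 probes were called higher with CDDO-Im, CDDO-Me and DMF, and 0 lower.

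On 10 arrays 8, 7 and 7 probes of this list were called higher and 2, 3 and 0 lower. Over all probes on these arrays 5.01%, 4.91% and 3.46% were called higher and 4.05%, 4.52% and 3.31% lower, so the lower calls are near the share of all probes. The lower genes were Acsl3, Cisd1 and Scd1. Acsl3, an enzyme that activates fatty acids, was called at a single probe (-0.49 and -0.42 with CDDO-Im and CDDO-Me). Its other tested probe, ILMN_3061300, gave 0.07 with CDDO-Im and was not called. Cisd1, a protein of the outer mitochondrial membrane, gave -0.34 and -0.30 with CDDO-Im and CDDO-Me. Scd1, which desaturates fatty acids, gave -0.50 with CDDO-Me. Gch1 rose with all 3 agents, and Por, the cytochrome P450 reductase, rose by 0.37 with CDDO-Im and by 0.33 with DMF. The list's median on 10 arrays was 0.10, 0.07 and 0.10, beside -0.02, -0.01 and -0.02 over all tested probes. Of its 42 probes, 18, 15 and 12 had an unadjusted p under 0.05, beside 4380, 4442 and 4521 of all 19211.

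Of the 10 genes of selenoprotein synthesis and selenium uptake, all tested with 16 probes, Lrp8, a receptor for selenoprotein P, was the only one called on 12 arrays. Its probe ILMN_1247823 rose by 1.52 with CDDO-Im and 1.49 with CDDO-Me (limma, adjusted p = 0.0241 and 0.0366), and with DMF it was at 1.31 (adjusted p = 0.147). On 10 arrays all 4 probes of Lrp8 were called higher with each agent, by 0.87 to 1.56. With CDDO-Im Secisbp2, which binds the selenocysteine insertion element, rose by 0.46, and with CDDO-Me Scly, the selenocysteine lyase, was called lower at 2 probes, by -0.76 and -0.39. Of 18 other selenoproteins, 16 were tested with 24 probes, and Txnrd1, the cytosolic thioredoxin reductase, rose by 2.51 with CDDO-Im on 12 arrays (adjusted p = 0.021). On 10 arrays it rose by 1.75, 1.66 and 1.68 with the 3 agents, and Selenop, the plasma selenium carrier, fell by 0.64 with CDDO-Im. The medians of the 24 probes on 10 arrays were 0, 0.01 and 0.03.

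**Figure D4:**
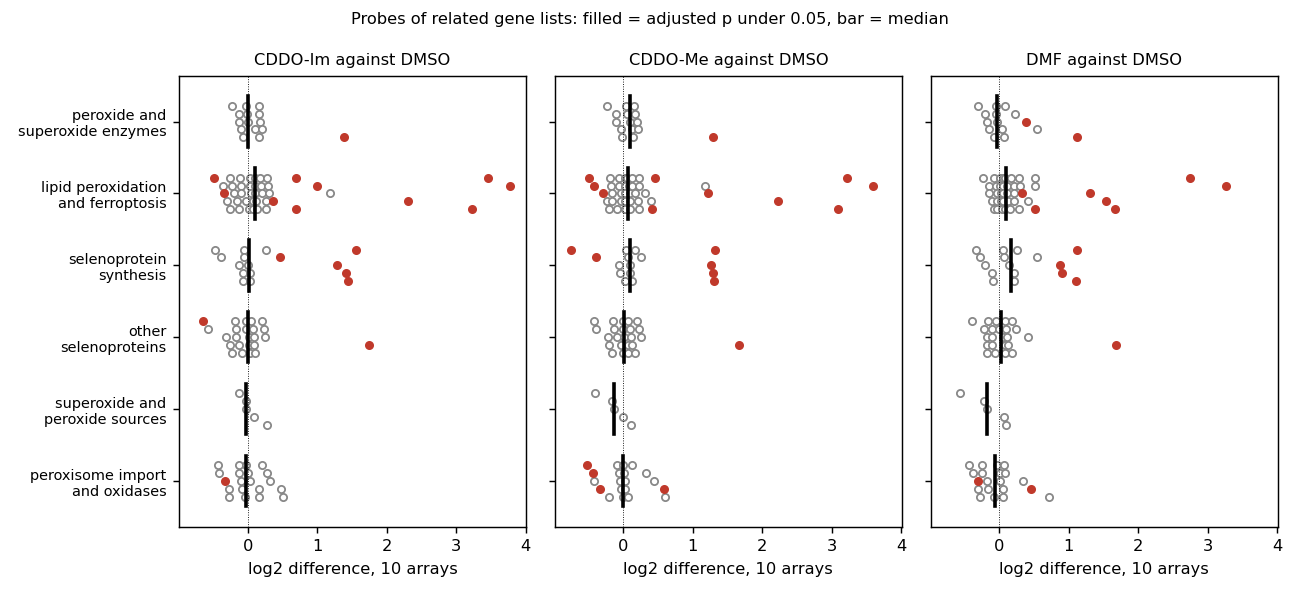
Log2 difference from DMSO (x) on the 10 arrays of each tested probe of 6 related gene lists (y), for CDDO-Im, CDDO-Me and DMF; filled points had an adjusted p under 0.05 by limma over all probes and bars are list medians. The medians lie between -0.17 and 0.17, and the points farthest to the right are probes of Slc7a11.

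The sources of superoxide and peroxide, NADPH oxidases with their subunits and xanthine dehydrogenase, were mostly under the filter: 4 of 16 genes were tested, with 5 probes, and 0 were called by limma on either set, with 0 on 12 arrays at an unadjusted p under 0.05, and on 10 arrays 0 with CDDO-Im, 0 with CDDO-Me and 1 with DMF. Of 15 genes of peroxisomal import and oxidases, where catalase works, 10 were tested with 20 probes. On 12 arrays 0 were called by limma. An unadjusted p under 0.05 was found for 5, 5 and 4 with CDDO-Im, CDDO-Me and DMF. Over all 19211 probes it was found for 2464, 1362 and 1243. On 10 arrays Paox, a polyamine oxidase that yields peroxide, was lower with all 3 agents at 1 probe (-0.32, -0.33 and -0.31) and with CDDO-Me at 3 probes. Pex13, a peroxisomal import protein, rose by 0.58 with CDDO-Me, and Hao1, a peroxisomal hydroxyacid oxidase, rose by 0.46 with DMF. The medians of that list on 10 arrays were -0.03, 0 and -0.06.

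The 5 genes whose signal went most closely with Aifm2 probe ILMN_1216842, after subtraction of the chip means, were sought with both sets of arrays. On 12 arrays they were Aqp5, Mknk2, Lgr6, Tnfaip2 and Plcd3, with Pearson correlations of 0.975, 0.971, 0.966, 0.965 and 0.96. On 10 arrays they were 2610528A11Rik, Apaf1, Btbd11, Add3 and Plekha6, at 0.99, 0.979, 0.976, 0.975 and 0.974. The 2 sets of names share no gene. These are correlations across arrays that share treatments, so they describe a common order of the 4 groups and are given without a p.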

How the data were processed

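Total RNA of 12 samples of VC1 cells, 3 in each of 4 groups, was measured on Illumina arrays on 2 BeadChips, each of which held samples of all 4 groups. The intensity values were deposited as mean bead signals without normalization, per the file headers, exported with GenomeStudio's Gene Expression module 1.9.0. Background had not been subtracted. The detection p-values were deposited beside them, per the file headers, computed per array. Bead numbers per signal were deposited too, with a median of 35 to 41 per probe by array. A matrix of normalized intensity values, which the authors deposited (the sources used here do not give its method), served as an alternative; its column medians were 170.18 to 172.05. 12 deposited columns of bead errors were not used.

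Signals were corrected with limma's normexp method from the detection p-values (offset 16), put on the log2 scale and quantile normalized, and the deposited detection p-values chose the 19211 probes kept (under 0.05 on at least 3 arrays). Differences were tested with limma 3.58.1 in R 4.3.3, in a single fit of the 12 arrays on group plus chip, two-sided, with Benjamini-Hochberg adjustment over all probes kept; 5 comparisons were made, and repeated on 10 arrays. Standard errors are limma's. All probes of a member gene were tested, rather than 1 per gene. The scripts were tested on simulated data. Deviations from the group means of same-numbered arrays all correlated over 0.1 only for CDDO-Me and DMF (0.344, 0.148 and 0.169, pairs that also shared a chip), so the numbers were taken to pair that comparison alone. The main fits kept chip as their term there, and the replicate block was an alternative fitted on 12 arrays only.

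The members, lists and the set of 10 arrays were chosen with earlier results of these data known. Every member was named. Of each list the called genes were named, and 5 genes most like the member probe with the smallest adjusted p. Nqo1 and Hmox1 were named as known NRF2 targets. The 0.1 µM dose belongs to CDDO-Me by the titles, which were followed, and to CDDO-Im in the series' design text. Probe sequences were not used here, so probes that may also bind near-identical gene copies (such as those of Gpx4, Sod1 and Gpx1) were not checked. Gene symbols of list members were updated through RefSeq, 29586 probes by Entrez number and 2759 by accession, with 12936 left as they were. 1 further leukocyte marker of the list is not reported here and was left out of the summed intensity.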

Additional observations from a re-analysis of the deposited data

How the results depend on the processing

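The count of called probes among the 16 depended on the arrays used. It was 0, 1 and 0 for CDDO-Im, CDDO-Me and DMF against DMSO on 12 arrays, 3, 8 and 2 on 10 arrays, and 3, 8 and 2 on the 10 arrays normalized again, an alternative added after seeing the data. CDDO-Me against DMF gave 0 on 12 arrays, 4 on 10 arrays, 4 when normalized again, and 4 with only the 2 groups compared. The planned array weights, by limma's default, did not settle (a weight of 404000 for DMSO replicate 3) and gave 11, 11 and 7 calls against DMSO; they were replaced by gene-by-gene weights after these counts were seen. The latter gave 4, 8 and 2, and 2 and 6 for CDDO-Im and CDDO-Me against DMF. For CDDO-Im the count was 1 with cyclic loess, 1 within chip 2 and 1 with the replicate block in place of chip. For CDDO-Me it was 3 within chip 2 and 2 with the replicate block, and 0 with no background correction, median scaling, the authors' matrix, within chip 1, with only the 2 groups or with 1 probe per gene (the brightest, which for Aifm2 is another probe). For DMF it was 1 within chip 2. Leaving out single arrays gave 0 to 3, 0 to 3 and 0 to 1 against DMSO, and 0 to 0 and 0 to 1 against DMF. The probe of Aifm2 called on 12 arrays lost its call under 5 alternatives, with adjusted p = 0.0534 without background correction, 0.312 with median scaling, 0.0802 with the authors' matrix, 1 within chip 1 and 0.428 with only the 2 groups, always below 0 in difference. Acsl4 probe ILMN_1244872 with CDDO-Me turned from 0.03 to -0.33 on 10 arrays, and to -0.33 when these were normalized again. Against DMSO, 686 of 735 probe results under alternatives kept their side of the threshold, 42 gained and 5 lost a call, and 45 changed sign, 2 of them with a call. Called probes of all 19211 went from 283, 204 and 58 on 12 arrays to 0 within chip 1 in each and to 2673, 2802 and 2741 with gene-by-gene weights; against DMF they went from 0 and 10 to 506 and 1105. The lists' called probes went from 10, 6 and 5 on 12 arrays to 19, 22 and 16 on 10. Median scaling moved the median of all probes by 0.213 with CDDO-Me and 0.124 with DMF. Of 18 same-numbered pairs of arrays, 10 correlated over 0.1 (-0.204 to 0.344). Each of those 10 pairs shared a chip, and the pairs on different chips gave -0.061, -0.022, 0.087 and 0.043. Of the 12 arrays, 9 were nearest to their own number. The labels state no pairing. The chip means were not subtracted here, and whether replicate number or chip lay behind these correlations was not tested. For CDDO-Me against DMF all 3 pairs were over 0.1. The replicate block was fitted there on 12 arrays alone, where 0 of the 16 probes were called with either term. It cannot bear on the 4 calls of the 10 arrays, which were not refitted with it. 3 arrays a group limit the precision, and probes near background, such as that of Gpx2, can show only large differences.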
